A study of Mus musculus with 12 samples.

Results

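SLAM family receptors are cell-surface proteins of the immunoglobulin superfamily, and 6 of their genes are described here: Slamf1, Slamf6, Slamf7, Slamf8, Slamf9 and Cd48. They are 6 of the 27013 genes in the expression table, and all 6 were among the 10778 genes that carried an adjusted p there. Members were picked by name, as gene family relatives, because Slamf1 had changed in the comparison of the genotypes; that value of Slamf1 is therefore given as a description and supports nothing. The family has 3 further genes, Ly9, Cd244a and Cd84, which are given beside the members for comparison.

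The cells were macrophages of C57BL/6 mice, grown from bone marrow for 7 days with 20 ng/ml M-CSF and then stimulated to the inflammatory M1 type for 24 hours, with LPS at 100 ng/ml and interferon gamma at 20 ng/ml. One genotype was the Ythdf2 conditional knockout (cKO) and the other was wild type (WT). Both received the same growth factor and stimulation, and mercaptoethanol at 50 uM is given for every library. The labels do not name the Cre driver, the age or the number of mice. The input RNA of m6A sequencing was compared between 2 cKO and 2 WT libraries, while the m6A peaks and the YTHDF2 peaks used here are 1 list each for WT cells. The labels do not tell whether the 2 libraries of a group have separate mice or cultures behind them, and the p-values thus measure only the spread between these libraries, which may be technical. No file gave a value per library or a library depth, so each gene is described by the authors' log2 fold change, its standard error (SE) and its mean normalized count over the libraries, all of which, with every p, come from the authors' deposited table. That count is not divided by transcript length: it shows the read support of a gene and does not order the genes by level.

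Neither the header nor the labels state the numerator of the fold change. Ythdf2, the targeted gene, stood at 1.10 ± 0.16 (log2 fold change ± SE) in the authors' deposited table with a mean normalized count of 1762, and the sign of every gene below is given against that of Ythdf2. A positive gene lay on the same side as Ythdf2 RNA, and a negative gene on the other side. The sources used here do not say which exons the conditional allele removes, so the sign of Ythdf2 does not settle which genotype was higher.

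YTHDF2 is a reader protein of N6-methyladenosine (m6A), a mark on mRNA, and it recruits the machinery that shortens poly(A) tails and so promotes decay of marked transcripts. Most SLAM receptors bind a copy of themselves on a neighbouring cell; CD48, which is held in the membrane by a lipid anchor, instead binds CD244. Slamf1, Slamf6 and Slamf7, like Ly9, Cd84 and Cd244a, carry tyrosine-based switch motifs in their cytoplasmic tails that recruit small adaptors of the SAP family, whereas Slamf8 and Slamf9 have short tails without them and Cd48 has none. In macrophages SLAMF1 has been described as a sensor of Gram-negative bacteria that moves with them to the phagosome, SLAMF7 as a receptor that helps to engulf blood tumour cells together with the integrin CD11b, and SLAMF8 as a restraint on the phagocyte oxidase. Slamf1 (CD150), Cd48 and Cd244a are also the markers by which mouse blood stem cells are sorted.

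The 6 members lie within 958 kb of chromosome 1 (GRCm38.p6, the same coordinates as mm10). The proximal cluster holds Slamf7 (171632403 to 171653037), Cd48 (171681245 to 171705258), Slamf1 (171767131 to 171801184) and Slamf6 (171917458 to 171948958), and the distal cluster holds Slamf9 (172458569 to 172478421) and Slamf8 (172581377 to 172590873). RefSeq promoter sequences were found for all 6 members. The table gives 1 start a gene, which for several members lies inside the gene span above: 16.8 kb inside for Slamf9, 4.04 kb for Slamf7, 747 bp for Cd48 and 305 bp for Slamf8, against 4 bp for Slamf6 and 1 bp for Slamf1. Since the cells had been given LPS and interferon gamma, the 250 bases before the transcript start that the RefSeq promoter table uses for each gene were searched on both strands for an ISRE core (GAAANNGAAA, read by interferon regulatory factors), an NF-kB site (GGGANNTTCC), a PU.1 site (GAGGAAGT, read by the macrophage lineage factor PU.1) and an AP-1 site (TGANTCA). The 100 bases before that start are shown for Slamf1, the member that was called, and for the 3 members that held a match in those bases; they read 5′ to 3′ along the gene's strand, and capitals mark the match.
Slamf1 (chr1:171767032-171767131, plus strand, no match): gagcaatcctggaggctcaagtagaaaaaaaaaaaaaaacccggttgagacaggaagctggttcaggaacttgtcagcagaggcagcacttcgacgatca
Slamf7 (chr1:171649000-171649099, minus strand, AP-1): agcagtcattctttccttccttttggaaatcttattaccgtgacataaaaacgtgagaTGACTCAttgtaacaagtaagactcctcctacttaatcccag
Slamf8 (chr1:172590569-172590668, minus strand, ISRE core): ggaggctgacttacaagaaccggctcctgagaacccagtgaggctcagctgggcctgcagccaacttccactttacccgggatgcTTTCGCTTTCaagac
Slamf9 (chr1:172475260-172475359, plus strand, PU.1): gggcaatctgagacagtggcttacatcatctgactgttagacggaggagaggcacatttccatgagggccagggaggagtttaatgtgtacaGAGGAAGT

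The Slamf8 promoter held an ISRE core on the opposite strand that began 15 bases before the start, as 2.98% of all 32851 promoters in the table hold one in a window of this length. The Slamf9 promoter held a PU.1 site 8 bases before the start (2.44% of all promoters), and the Slamf7 promoter an AP-1 site 42 bases before it (6.75% of all promoters). No member held an NF-kB site (1.21% of all promoters) in this window, and the promoters of Slamf1, Slamf6 and Cd48 held none of these 4 motifs. Outside the members, the promoters of Cd244a and Cd84 held an AP-1 site, 122 and 229 bases before the start. Ly9 had no promoter sequence among those searched. All these distances count from the start in the promoter table. The windows of Slamf9, Slamf7, Cd48, Slamf8 and Cd244a thus lie inside the gene span and do not cover the bases before its outermost annotated end. These matches describe letters and do not show binding.

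Slamf1 was the 1 member of 6 that passed an adjusted p of 0.05 in the comparison of the genotypes, and it was positive. The authors' deposited table gives it a log2 fold change of 1.07 ± 0.21 (SE) and an adjusted p of 0.00016 by a Wald test, at a mean normalized count of 433. The 95% interval of the log2 fold change ran from 0.65 to 1.49, which is a ratio of 2.10 between the genotypes with an interval of 1.57 to 2.81. If that ratio is taken as one of the genotype means, they stood at about 587 normalized counts in the genotype on the side of Ythdf2 and about 279.5 in the other. Of all tested genes, 2.32% passed this threshold, 1.76% on the positive and 0.557% on the negative side. Since Slamf1 chose the members, 1 call in 6 is not read against these shares. Among the 190 called positive genes, 21 had a higher log2 fold change than Slamf1. Its SE of 0.21 was close to the median SE of 0.19 among the 2002 tested genes whose mean count lay within 1.5-fold of its own.

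None of the 5 other members was called by the authors' Wald test, and Slamf7 was the 1 with an unadjusted p under 0.05. For Slamf7, also known as CRACC or CS1, the log2 fold change in the authors' deposited table was 0.36 ± 0.12 (unadjusted p 0.0034, adjusted p 0.109). At a mean normalized count of 33675 it had the greatest read support of the members, and its 95% interval of 0.12 to 0.59 bounds its ratio between 1.08 and 1.51. Slamf6, also known as Ly108, was at −0.04 ± 0.18 (adjusted p 0.997, mean count 901), with an interval of −0.38 to 0.31. That interval leaves ratios of up to 1.24 in one direction and 1.31 in the other for Slamf6.

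The members without switch motifs did not pass either. Slamf8, the oxidase restraint, was at 0.31 ± 0.17 in the authors' deposited table (mean count 1137, adjusted p 0.562), with an interval of −0.02 to 0.64. Slamf9 was at 0.02 ± 0.12 (adjusted p 0.997, mean count 5870), with an interval of −0.21 to 0.26; the sign of this small value turns to −0.02 when the most abundant genes are used for centring. Cd48, the ligand of CD244, was at −0.09 ± 0.12 (adjusted p 0.955, mean count 4735), with an interval of −0.33 to 0.15. Over the 6 members 4 values were above 0 and 2 below, with a median of 0.17, or 0.02 without Slamf1, against −0.01 over all tested genes.

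**Figure D1:**
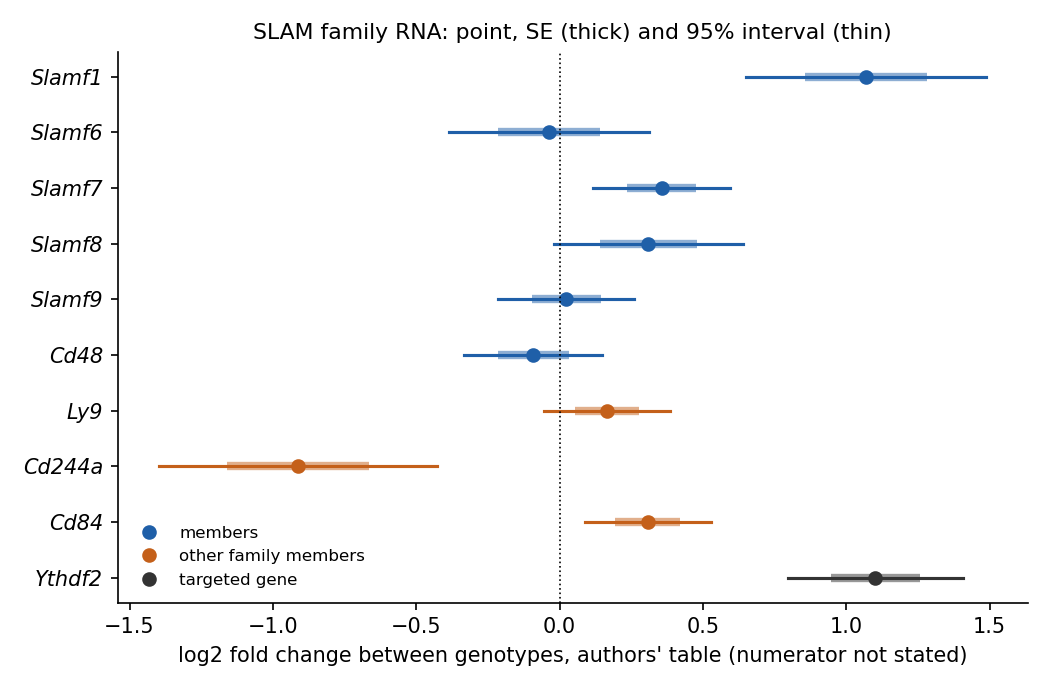
Log2 fold change between the genotypes in the authors' deposited table (x axis; the numerator is not stated) for the 6 members (blue), the 3 other family genes (orange) and Ythdf2 (black). Points are the authors' values, thick bars their SE and thin lines the 95% interval; Slamf1 at 1.07 and Cd244a at −0.91 lie apart from the other family genes, which stand between −0.09 and 0.36.

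Of the 3 family genes that the members leave out, Cd244a was called, with the sign opposite to Slamf1. Cd244a encodes CD244 (2B4), the receptor that binds CD48, and it was at −0.91 ± 0.25 in the authors' deposited table (mean count 302.5, adjusted p 0.015; chromosome 1, 171558718 to 171585316). Its 95% interval of −1.40 to −0.43 did not reach 0, and 11 of the 60 called negative genes lay lower. The RNA of its ligand Cd48 stood at −0.09 ± 0.12, and the difference between the pair was not tested. Cd84 was at 0.31 ± 0.11 (adjusted p 0.155, mean count 17435) and Ly9 at 0.17 ± 0.11 (adjusted p 0.747, mean count 16095). Over the 9 family genes, 1 positive and 1 negative gene were called, and 6 values were above 0. Of all tested genes, 1.76% were called positive and 0.557% negative. The positive family gene is Slamf1, which chose the members, so these calls are not read against the shares.

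**Figure D2:**
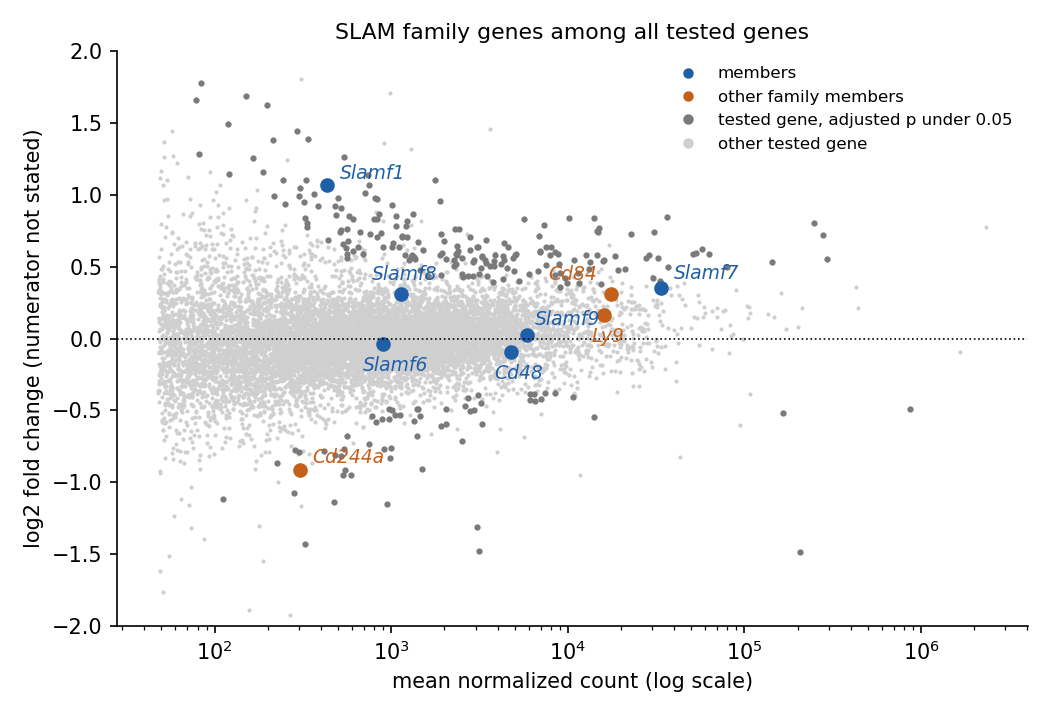
Mean normalized count (x axis, log scale) against the authors' log2 fold change (y axis) for all tested genes in light grey, those with an adjusted p under 0.05 in dark grey, the 6 members in blue and the 3 other family genes in orange. The axis stops at a log2 fold change of 2 on either side and leaves out 17 genes; Slamf1 (count 433) and Cd244a (count 302.5) sit among the dark points, and the family genes with higher counts do not.

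A few other transcripts overlap these genes. Of the members, Slamf6 shares 1899 bp with the long non-coding gene Gm37065 (mean count 6.0), Slamf9 shares 792 bp with the pseudogene Gm7804 (16.4) and Slamf7 holds Mir7683 (8.8). The sources used here do not say whether strand was used in counting; these counts are small beside those of the members. No annotated gene overlaps Slamf1, Slamf8 or Cd48.

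The cells carried macrophage RNA. All 8 macrophage markers were in the table, at mean counts from 2991 (Mertk) to 204979 (Lyz2), and 3 of the 8 were called, Cd68 on the positive side (0.40 ± 0.11 in the authors' deposited table) and Itgam and Lyz2 on the negative side (−0.55 ± 0.11 and −1.49 ± 0.33). Of the 7 markers of the M1 state, 6 were tested and Cxcl9 was the 1 called, at 0.62 ± 0.15 in the authors' deposited table, with all 6 values above 0. The SE was 1.17 for Il1b at a mean count of 8766 and 0.62 for Cd14 at 9738, against 0.12 for Cd48 at 4735, and which libraries differed in these LPS-responsive genes cannot be read without values per library. Lymphocytes and blood stem cells also use SLAM receptors, and most of their markers had too few reads to be tested. The T cell genes Cd3e and Cd3d had mean counts of 0.5 and 0.3, and the stem cell genes Kit and Cd34 had 10.3 and 2.7; none of these had an adjusted p. Of 7 T cell markers 6 were in the table, with a summed mean count of 266.1, of which Cd4 made up 248.9, and Cd4 was at 0.79 ± 0.25 (adjusted p 0.062). Of the B cell markers Cd79b was the 1 tested, at −0.94 ± 0.48 with a mean count of 49.0 (adjusted p 0.499). Of 4 NK cell markers the 1 in the table was Klrk1 (917.4; 0.33 ± 0.16, adjusted p 0.421). Of the 3 tested T, B and NK cell markers Klrk1 and Cd4 had the sign of Slamf1 and Cd79b the opposite sign, none of them called. The tested plasma cell marker, Sdc1, was called with the sign of Slamf1. The part of lymphoid cells in the value of Slamf1 was not tested. In bulk RNA, fewer cells of a kind and less RNA per cell cannot be told apart.

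None of 6 neutrophil markers was called, and 3 of them were tested; S100a8 was at −0.39 ± 0.26 in the authors' deposited table and Csf3r at 0.06 ± 0.13. Plasma cell markers gave 1 tested gene of 3, Sdc1, which was called at 0.54 ± 0.14, while Jchain and Mzb1 had counts of 1.4 and 0.2. All 3 stroma markers were tested and Col1a1 alone was called, at 0.56 ± 0.17, with 2 values above 0 and 1 below, at −0.20. Of 2 megakaryocyte markers 1 was tested, Pf4, which was called at −0.58 ± 0.17. No dendritic, mast or stem cell marker was tested, and the highest mean counts of these lists were 30.1, 0.8 and 10.3.

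Of 39 listed genes known to act with SLAM receptors 36 were tested, and 3 of these were called (8.33%), against 2.32% of all tested genes. The 1 positive call made up 2.78% of the list, against 1.76% of all tested genes, and the 2 negative calls 5.56%, against 0.557%; 1 of the negative genes is Cd244a itself, and the list was chosen with earlier results of these data known. The median of the list was −0.06, with 14 values above 0 and 22 below. Src, a tyrosine kinase and 1 of 8 kinases on the list, was at 0.57 ± 0.15 by the authors' deposited table (adjusted p 0.0082); the other 7, Fyn among them, lay between −0.16 and 0.07. Itgam, which encodes the CD11b chain that works with SLAMF7 in engulfment, was at −0.55 ± 0.11 (adjusted p 0.00014), and the 3 other partners of Slamf7 on the list were also below 0, none of them called. Cd2, the other receptor of CD48, had a mean count of 0.6 and was not tested.

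The adaptors and the routes downstream of Slamf1 gave no call by the Wald test. Of the 3 SAP-family adaptors, all named here after their values were seen, Sh2d1b1 (EAT-2) was the 1 tested. It was at 0.10 ± 0.27 in the authors' deposited table with a mean count of 230.3. Sh2d1a (SAP) had a mean count of 0.3 and Sh2d1b2 one of 1.0. None of 7 phagosome and TLR4 partners of Slamf1 was called (0 of 7 at an unadjusted p under 0.05), with values from −0.11 to 0.17. None of 6 subunits of the phagocyte oxidase was called (0 of 6 at an unadjusted p under 0.05), with values from −0.29 to 0.22. None of 4 phosphatases was called (1 at an unadjusted p under 0.05, Ptpn6 at −0.25 ± 0.11) and none of 3 lipid-signalling genes (1 at an unadjusted p under 0.05, Plcg2 at −0.26 ± 0.12).

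Among the tested genes that surround the members on chromosome 1, Cd244a alone was called. Of all tested genes, 2.32% were called. Between 171382403 and 172840873, which is 250 kb to either side of the members, 19 other genes were tested, with a median of −0.01. Among the 16 neighbours from outside the family none was called by the Wald test, and 0 had an unadjusted p under 0.05; their values ran from −0.42 to 0.25. The flanks of Slamf1 within the family were Cd48 at −0.09 and Cd84 at 0.31.

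**Figure D3:**
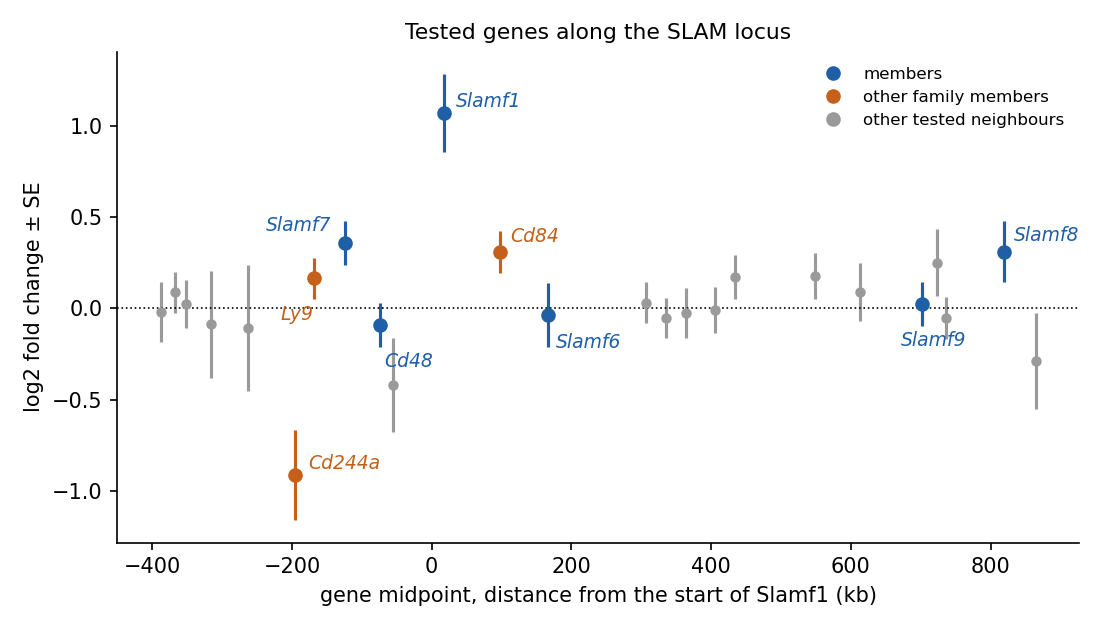
Log2 fold change with its SE (y axis) of tested genes along chromosome 1, placed by the distance of the gene's midpoint from the start of Slamf1 in kb (x axis); members are blue, other family genes orange and other neighbours grey. Slamf1 is the highest point and Cd244a the lowest, and the 16 grey genes lie between −0.42 and 0.25.

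In WT cells, 5 of the 6 members had an m6A peak and 2 had a peak in the list deposited for YTHDF2. Over all tested genes the shares were 45.4% and 64.5%. Both kinds of peak were listed for Slamf7 and Slamf9 (35.9% of tested genes), Slamf1, Slamf8 and Cd48 had m6A alone (9.53%), and Slamf6 had neither (25.9%). Of the 3 other family genes, Ly9 and Cd84 had both kinds and Cd244a neither. Both lists are single lists for the group, so these counts have no replicate check. Every peak in the YTHDF2 list is named as an m6A peak in its name column, so which libraries it was called on is not settled by the file.

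Both lists held more of the genes with high counts. The share of genes with an m6A peak was 68.4% in the top decile of tested genes by mean count and 7.98% in the bottom decile, and for the YTHDF2 list it was 89.3% and 17.7%. Slamf1 lay in decile 4, counted from the bottom, where 39.5% of genes were in the m6A list and 58.9% in the YTHDF2 list. Slamf7, Slamf9 and Cd48 lay in the top decile, so that Cd48 lacked a YTHDF2 peak where 89.3% of genes had one. Slamf6 lacked an m6A peak in decile 6, where 52.1% of genes had one, and Slamf8 lacked a YTHDF2 peak in decile 7, where 81.0% had one.

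**Figure D4:**
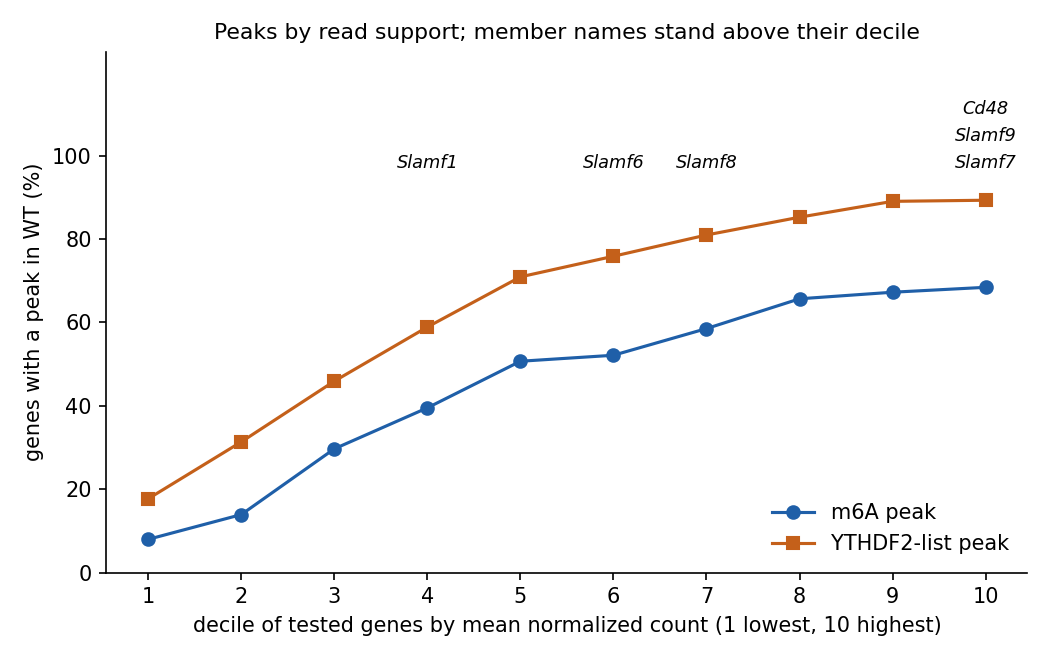
Share of tested genes with an m6A peak (blue circles) or a peak in the YTHDF2 list (orange squares) in WT cells (y axis, percent) by decile of mean normalized count (x axis, 1 lowest and 10 highest). Names of members stand above their decile; the YTHDF2 share is 17.7% in the bottom decile and 89.3% in the top one.

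Slamf1 carried 2 m6A peaks near its 3′ end and no YTHDF2 peak. The m6A peaks lay at 171799829 to 171800153 and 171800204 to 171800253, spanned 325 and 50 bp, and ended 1031 and 931 bp before the end of the gene. The peaks in the YTHDF2 list are numbered in order of position on chromosome 1. The peaks before and after Cd48 and Slamf1 are those of Slamf7 and Cd84, with 0 numbers missing between them, so no numbered peak was dropped at either gene. Around Slamf6 and Slamf8, 1 and 3 numbers were missing between the neighbouring peaks, and where those peaks lay is not given.

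Slamf7 held the most peaks of the members, 4 of m6A and 3 in the YTHDF2 list. From the 3′ end of the gene, its m6A peaks covered 171632503 to 171632577, 171632603 to 171634177, 171634353 to 171635798 and 171635949 to 171636048. The first YTHDF2 peak, at 171634126 to 171635098 with a fold enrichment of 1.87 given by the authors, overlapped the second and the third of these m6A peaks by 52 and 746 bp. Its summit, at 171634302, lay in the gap between those m6A peaks and in no listed feature of the named transcript. The second YTHDF2 peak, at 171635795 to 171636452 with a fold enrichment of 2.12, covered all 100 bp of the last m6A peak and touched the third m6A peak. Its summit lay in an intron of the transcript the list names. The third YTHDF2 peak, at 171639172 to 171639377, had the highest fold enrichment of the members, 2.38. Its summit was in coding sequence, 6865 bp before the gene's 3′ end, and it overlapped no m6A peak.

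Slamf9 had 2 m6A peaks and 1 YTHDF2 peak. The upstream m6A peak lay at 172475458 to 172476300, and the downstream one at 172477457 to 172478437, which runs past the annotated end of the gene. The YTHDF2 peak, at 172477968 to 172478302 with a fold enrichment of 2.16, lay wholly inside the downstream m6A peak (335 bp), and its summit was in coding sequence, 217 bp before the end of the gene. Slamf8 had 1 m6A peak at 172581833 to 172584153, which spans 2321 bp of genome against a median of 325 bp over all m6A peaks. Cd48 had 1 m6A peak of 350 bp at 171704895 to 171705244, ending 14 bp before the end of the gene.

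In all, 4 of the 10 m6A peaks of the members overlapped a YTHDF2 peak of the same gene by at least 1 bp, and 3 of their 4 YTHDF2 peaks overlapped an m6A peak. The fold enrichment of the 4 YTHDF2 peaks, 1.87 to 2.38, was below the list's median of 3.01. The list's lowest and highest values were 1.39 and 15.5. Ly9 held 6 YTHDF2 peaks, 5 of them with summits in coding sequence, while the 2 of Cd84 had summits in the 3′ UTR.

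**Figure D5:**
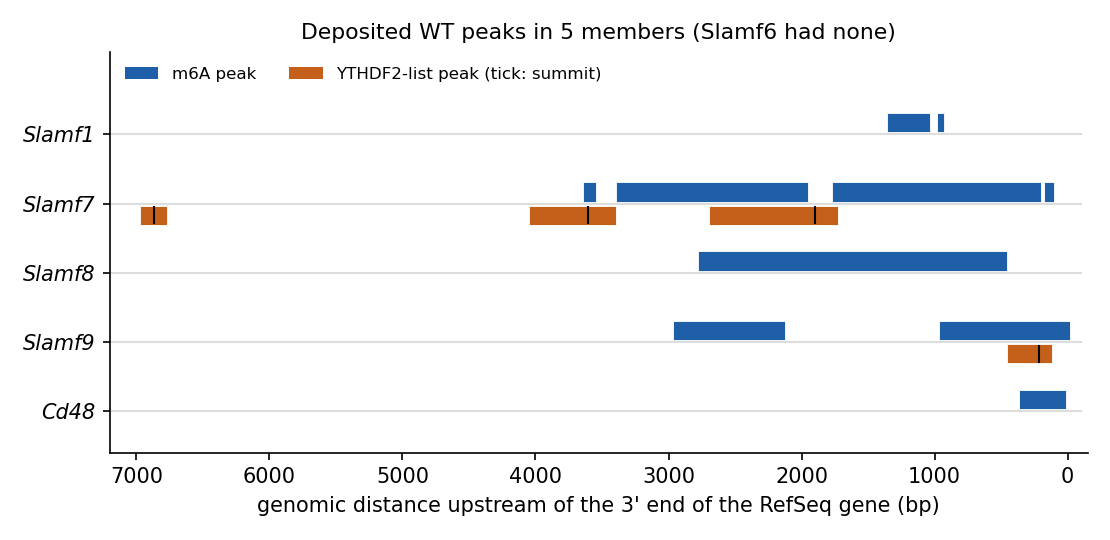
Deposited WT peaks of the 5 members that have any, by genomic distance from the 3′ end of the RefSeq gene in bp (x axis, 3′ end at the right); blue bars are m6A peaks, orange bars peaks of the YTHDF2 list and ticks their summits. Slamf1, Slamf8 and Cd48 show blue bars alone, and the peak of Slamf7 at 6865 bp stands apart from its m6A peaks.

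The genes most like Slamf1 were sought among tested genes with a mean count within 1.5-fold of its own, an m6A peak and no YTHDF2 peak, of which there were 290. Likeness was the difference in log2 fold change, over this 1 comparison. The genes were thus picked on the same values that their p-values rest on, and these describe the genes and support nothing. The nearest was Tgtp1, a GTPase induced by interferon, at 0.92 ± 0.19 by the authors' deposited table (adjusted p 0.00026 by the Wald test). Its value differed from that of Slamf1 by 0.15. Clmp, Asf1a, Rgs3 and Flrt3 followed at 0.64, 0.64, 0.62 and 0.60, none of them called, with an SE of 0.87 for Clmp and 0.20 to 0.27 for the others. In this group, which leaves out Slamf1 itself, 2 of the 290 genes were called (0.69%). Of all 2002 tested genes in the same count window 42 were called (2.1%, Slamf1 among them). Of tested genes at any count with an m6A peak and no YTHDF2 peak, Slamf1 included, 3.02% were called. The called genes of the 290 were Tgtp1 and, on the negative side, Cebpd, a transcription factor of the C/EBP family. Cebpd was named after its value was seen (−0.81 ± 0.19).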

How the data were processed

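The series holds 12 libraries in 6 groups of 2, and 3 deposited files were used; 0 columns held values per library. The expression table has the column names of DESeq2 results, per the file headers. Its mean normalized count is a signal that the authors averaged over libraries after size factors, and its log2 fold change and standard error on the log2 scale are the authors' own. The Wald statistic is a score the authors deposited and is the quotient of the preceding pair, and the deposited p-value is adjusted by Benjamini-Hochberg over the 10778 genes with a mean count of at least 48.0. The m6A list (10290 peaks; exomePeak2, per the labels) gives positions alone. The YTHDF2 list (17843 distinct peaks) gives a ratio deposited as fold enrichment, −log10 q values by the authors, and a deposited score, found to be −log10 q times 10 cut to an integer. The submitters' processing notes list HISAT2, HOMER, ChIPseeker and mm10 without versions; the sources used here do not give the peak caller of the YTHDF2 list.

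From these, 95% intervals were computed as normal intervals from the standard error. Peak symbols were joined to the table directly or through RefSeq synonyms (5163 of 5447 m6A genes and 7338 of 7598 YTHDF2 genes). Starts were turned to 1-based. Overlap needed 1 bp, and a summit was placed in the feature of the named transcript. Gene positions and promoters come from RefSeq (GRCm38.p6). Python 3.11.15, pandas 2.3.3 and scipy 1.17.1 were used, and the functions were tested on simulated data.

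The members, the lists of partner and marker genes, the motifs and the tests were chosen with earlier results of these data known. Named genes were all members, the other family genes, Ythdf2, called genes of the partner list and of the neighbours, and the 5 genes nearest to Slamf1; marker and adaptor genes outside this rule were named after their values were seen. Alternatives were another threshold, a minimum fold, no count filter, centring, stricter peaks and stricter overlap. The m6A peaks of cKO cells were not used here. One marker gene and 1 promoter motif are not reported here.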

Additional observations from a re-analysis of the deposited data

How the results depend on the processing

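No paired analysis was possible because the files hold the authors' comparison alone, with no value per library; for the same reason no replicate could be left out. Under the other settings 36 values were taken as unchanged, and 2 counts moved. The counts and adjusted p-values among the 36 kept their side of the threshold or stayed within 1.5 times. The log2 fold changes of Slamf6 and Slamf9 did not stay within 1.5 times. With centring Slamf6 went from −0.04 to −0.08, and Slamf9 changed sign. With a minimum of 1.5-fold, 1 of the 3 called partner genes was left (Cd244a; Src and Itgam lie below that fold). At an adjusted p under 0.01, 0 of the neighbours were called by the authors' Wald test (2, Cd244a and Cd84, had an unadjusted p under 0.05). Slamf1 was the 1 called member of 6 at thresholds of 0.1 and 0.01, with a 1.5-fold minimum, with no count filter (adjusted p 0.00038) and with centring (adjusted p 0.00042). Because Slamf1 chose the members, its call at these settings describes its own value and supports nothing. Centring on the most abundant 25% of genes, a shift of 0.04, put Slamf9 at −0.02 in place of 0.02, neither called. The adjusted p of Cd244a was 0.037 with no filter and 0.011 with centring. Over all genes, 250 calls became 143 at the 0.01 threshold and 145 with the fold minimum. Without m6A peaks over 1000 bp, Slamf8 lost its peak, leaving 4 members with one. Either stricter overlap left 3 of the 4 overlapping m6A peaks. Counts of 433 for Slamf1 and 302.5 for Cd244a limit precision, with SEs of 0.21 and 0.25.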

Other observations

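Called genes were spread over the classes of peaks that the members fall in. Of the 1027 tested genes with an m6A peak and no YTHDF2 peak, as in Slamf1, Slamf8 and Cd48, 3.02% were called, with a median log2 fold change of 0.01 in the authors' deposited table. Of the 3864 with both kinds of peak, as in Slamf7 and Slamf9, 3.05% were called (median 0.03), and of the 2796 with neither, as in Slamf6 and Cd244a, 1.43% (median −0.07). The classes also differ in read support, and its part in these shares was not tested.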
